A study of Drosophila melanogaster with 6 samples.

Results

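Notch signalling was examined through 10 genes, the receptor and ligands of the pathway and the core factors that act on them, out of 17321 genes in a table of RNA-seq values from sorted enteroblasts (EBs). The genes were chosen by name as N, Dl, Ser, neur, mib1, kuz, Su(H), H, numb and spdo. Each had 1 transcript in the table, the RA isoform. In the adult midgut of Drosophila melanogaster, an EB is the daughter of an intestinal stem cell that has left the stem cell state and is not yet differentiated. The tested libraries came from EBs of homozygous Sox21a flies, called Sox21a EBs, and lacked a functional copy of a transcription factor of the SOX family. They were set against control EBs. The labels call the control flies wild-type, whereas the methods describe them as Sox21a/+. Which Sox21a allele was sorted for this experiment is not given in the sources used here. All flies carried Su(H)GBE-Gal4 and UAS-CD8::GFP, were female adults aged 16 to 18 days and were kept at 25 °C. The labels place the cells in the anterior midgut. There were 3 libraries in each group, each a biological replicate from a pool of flies, and messenger RNA was amplified before sequencing.

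In the Notch pathway a membrane-bound ligand on one cell, Delta or Serrate, binds the Notch receptor on its neighbour. Ubiquitination and endocytosis of the ligand pull on the receptor, which is then cut by Kuzbanian and by the gamma-secretase complex. The released intracellular part joins Suppressor of Hairless on DNA and turns on target genes, chiefly those of the Enhancer of split complex. In the fly midgut, stem cells carry Delta and their daughters receive the signal, and strong Notch activity directs an EB towards the enterocyte fate. The driver used for sorting contains binding sites for Suppressor of Hairless, so the gate itself selected cells by a reporter of Notch activity. Cells that had lost the reporter were not collected.

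The deposited value of a transcript, called the normalized value below, rests on its number of reads divided by a size factor of the library. Counted in steps, where 1 step is the spacing of the values in a library, the total was 38646207 to 45955837 in Sox21a EBs and 37286049 to 42961209 in control EBs. The smallest value in each library was 2 steps, and values up to a limit of 4.92 to 5.58, depending on the library, were taken as not detected. Whether the 2 steps were added to every value or set as a floor is not given. Libraries correlated across transcripts at 0.986 to 0.991 within Sox21a EBs, at 0.974 to 0.989 within control EBs and at 0.915 to 0.931 between the groups. RNA of Sox21a itself did not separate the genotypes, with 14474, 14697 and 19025 in Sox21a EBs and 14123, 17337 and 16781 in control EBs (log2 fold change -0.01, adjusted p = 0.98, limma). The authors describe both of their Sox21a alleles as small deletions that shift the reading frame and end it early.

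Fold changes are given as log2 of Sox21a EBs over control EBs on the log2(value + 1) scale, which understates changes of low transcripts. A change was called at an adjusted p under 0.05 in limma, fitted over the whole table with Benjamini-Hochberg adjustment. Of 9571 genes tested, 34.4% were called, 24.2% higher and 10.2% lower in Sox21a EBs. With the replicate number as a block 36.9% were called, 26% higher and 10.8% lower. After the libraries were rescaled on expressed transcripts 32.4% were called, 17.2% higher and 15.1% lower. The median log2 fold change over all genes tested was 0.24, and it was 0.05 after rescaling, a shift of 0.19. Higher calls made up 70.3% of all calls, and 53.2% after rescaling. An exact permutation test of 3 against 3 libraries cannot give a two-sided p below 0.10. The p-values measure the spread between these pools of flies only.

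Markers of cell types were read before the pathway, since a sorted pool can hold other cells. Their counts stand beside 24.2% of all genes tested higher and 10.2% lower. With the block these shares were 26% and 10.8%, and after rescaling 17.2% and 15.1%. Most marker lists had few tested genes, so their counts are descriptive only. The progenitor markers esg, Sox21a, klu, Sox100B and zfh2 were detected in every library. Of these 5, only esg was called, with 11946, 15298 and 15760 in Sox21a EBs and 35411, 46683 and 40655 in control EBs. Of 8 enterocyte markers, 4 were lower (3 with the replicate block, without Myo31DF) and 0 were higher, and their summed value was 24826 to 28079 in Sox21a EBs and 42800 to 73527 in control EBs. Of 9 enteroendocrine markers, 7 were tested and 3, CCHa2, Tk and amon, were higher (2 with the block and 1 after rescaling). The 1 lower was pros, with 107, 48 and 45.2 in Sox21a EBs and 145, 210 and 154 in control EBs. The enteroendocrine sum was 2167 to 5065 in Sox21a EBs and 661 to 986 in control EBs. It thus rose while pros, the marker the authors used for these cells, fell. Of 8 tracheal markers, 4 were tested and 3, btl, trh and Gasp, were higher (2 after rescaling, without trh). The tracheal sum was 1902 to 2590 in Sox21a EBs and 704 to 977 in control EBs. Most of it was btl, with 1476, 1953 and 2237 in Sox21a EBs and 932, 718 and 652 in control EBs. The authors saw a btl reporter in some Sox21a EBs, so btl RNA need not come from tracheal cells. Of 9 muscle markers, 4 were tested and 2 were higher (1 with the replicate block), and their sum was 165 to 203 in Sox21a EBs and 66.2 to 119 in control EBs. Of 7 haemocyte markers, 2 were tested, 1 of them higher and 1 lower, and He lay at the smallest value in all 6 libraries. The haemocyte sum, nearly all of it crq, was 15371 to 18751 in Sox21a EBs and 9648 to 10337 in control EBs. Of 4 markers of neurons and glia, repo was higher (0 higher after rescaling), elav was lower, and nSyb and brp did not pass. Their sum, most of it elav, was 764 to 846 in Sox21a EBs and 1243 to 1272 in control EBs. repo had 92, 52 and 85.6 in Sox21a EBs and 42.4, 41.3 and 34.1 in control EBs. These sums moved alongside the pathway values that follow, and their part in them was not tested. In bulk libraries, fewer cells of a type and less RNA per cell cannot be told apart.

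Of the 10 Notch pathway genes, 9 were tested. The calls went to mib1 and numb, which were higher in Sox21a EBs, and to spdo, which was lower. The remaining 6 tested genes did not pass. The 3 calls among 9 genes stand beside 34.4% of all genes, so the number called was near the background. Libraries of the 2 groups did not overlap for 5 members, 2 higher and 3 lower, beside 51% of all genes, 35.8% higher and 15.2% lower. The median log2 fold change of the members was 0.01, and it was -0.18 after rescaling. With the replicate number as a block, N was called as well, making 2 members lower, with 10.8% of all genes lower in that fit. After rescaling, N, Su(H), H and spdo were all called lower, with 15.1% of all genes lower in that fit.

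**Figure D1:**
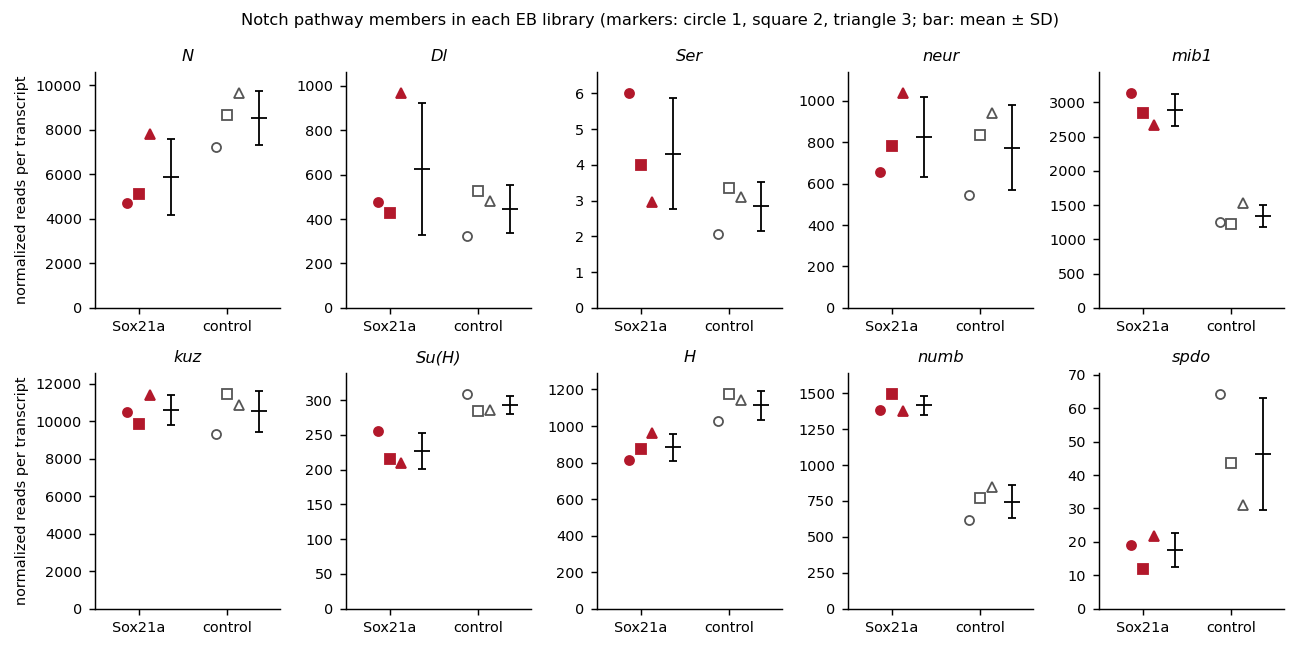
Normalized value of the 10 Notch pathway genes in each library, with 1 panel per gene, Sox21a EBs to the left and control EBs to the right. Points are libraries, with a circle, square and triangle for replicates 1, 2 and 3, and bars are group means with the SD of 3 libraries. Each linear axis starts at 0. The libraries of mib1 and numb lie higher in Sox21a EBs without overlap, those of Su(H), H and spdo lie lower, and Ser stays at 6 or less.

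The receptor Notch (N, FBgn0004647, X chromosome from 3134870 to 3172221, plus strand, Release 6) had normalized values of 4691, 5133 and 7808 in Sox21a EBs and of 7238, 8685 and 9636 in control EBs. On the deposited values, replicate 3 of Sox21a EBs exceeded the lowest control library, so the groups overlapped by 1 library. Rescaling divides that library by 1.14, the largest factor of the 6 libraries, and the others by 0.872 to 1.04. The mean of N, as deposited, was 5877 ± 1687 in Sox21a EBs and 8520 ± 1207 in control EBs (SD, n = 3 each). On the log2 scale the change was -0.56 (SE, standard error, 0.23, 95% confidence interval -1.11 to -0.01), with an adjusted p of 0.10 from limma. The call on N depended on the fit: the adjusted p was 0.045 with the replicate block, 0.034 after rescaling and 0.039 with an intensity trend. Without Sox21a replicate 3 it was 0.032, and the log2 fold change was then -0.79. Leaving out any other library did not give the call, at adjusted p between 0.067 and 0.27 (limma). Without a filter on low values it was not called either, at 0.17.

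Delta (Dl, FBgn0000463, 3R from 19302731 to 19326217, minus strand) is the ligand that marks midgut stem cells. It had values of 477, 428 and 966 in Sox21a EBs and of 324, 527 and 483 in control EBs. Sox21a replicate 3 was the highest of the 6 libraries, and the others lay between 324 and 527. This gave a log2 fold change of 0.42 (SE 0.34, 95% confidence interval -0.39 to 1.23, adjusted p = 0.37, limma). It ranged from 0.05 to 0.64 when each library was left out in turn, and the lowest value was that without Sox21a replicate 3.

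Serrate (Ser, FBgn0004197, 3R from 27172090 to 27194267, minus strand), the second ligand, was barely detected. Its values were 6, 4 and 2.95 in Sox21a EBs and 2.07, 3.35 and 3.10 in control EBs. All but Sox21a replicate 1 were at or under the detection limit. No difference was detectable at this depth, and the gene was not tested.

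A pair of RING-type E3 ubiquitin ligases act on the ligands in the signal-sending cell, and their RNA did not move together. Mind bomb 1 (mib1, FBgn0263601, 3L from 16006552 to 16011812, minus strand) had values of 3130, 2848 and 2671 in Sox21a EBs and of 1258, 1230 and 1527 in control EBs. Every Sox21a library exceeded every control library. The mean was 2883 ± 232 in Sox21a EBs and 1338 ± 164 in control EBs (SD, n = 3 each), a 2.15-fold higher level. In limma the log2 fold change was 1.11 (SE 0.16, 95% confidence interval 0.73 to 1.49, adjusted p = 0.0023, limma), and it was 0.92 after rescaling. A neighbouring gene on the opposite strand, mRpS31, shares 48 of the 4095 exon bases of mib1, and whether reads were counted by strand is not given in the sources used here. mRpS31 had a log2 fold change of 0.01 (adjusted p = 0.98, limma).

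Neuralized (neur, FBgn0002932, 3R from 9020348 to 9039471, minus strand), the other ligase, had values of 654, 783 and 1036 in Sox21a EBs and of 544, 835 and 939 in control EBs. The libraries of the groups interleaved. The log2 fold change was 0.10 (SE 0.26, 95% confidence interval -0.52 to 0.73, adjusted p = 0.78, limma), and it was -0.09 after rescaling. An antisense gene, asRNA:CR31429, lies over 1673 of its 4309 exon bases and had values of at most 9 in any library.

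Kuzbanian (kuz, FBgn0259984, 2L from 13550139 to 13639411, plus strand) is the ADAM metalloprotease that makes the ligand-dependent cut in the receptor. Its values were 10478, 9853 and 11413 in Sox21a EBs and 9305, 11429 and 10850 in control EBs. On the log2 scale the change was 0.01 (SE 0.16, 95% confidence interval -0.36 to 0.38, adjusted p = 0.97, limma), and it was -0.18 after rescaling. This was the smallest change among the tested members, and 1.16% of all genes tested had a smaller change.

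The nuclear members were both lower in every Sox21a library than in any control library, and neither passed the adjusted p. Suppressor of Hairless (Su(H), FBgn0004837, 2L from 15039488 to 15043334, plus strand) is the DNA-binding factor of the pathway. Its values were 256, 215 and 210 in Sox21a EBs and 308, 285 and 285 in control EBs. This gave a log2 fold change of -0.37 (SE 0.15, 95% confidence interval -0.73 to -0.01, adjusted p = 0.097, limma), and after rescaling it was -0.57 with an adjusted p of 0.032. Hairless (H, FBgn0001169, 3R from 20621938 to 20628915, plus strand) binds Su(H) and recruits co-repressors to it. Its values were 815, 873 and 961 in Sox21a EBs and 1025, 1173 and 1141 in control EBs. In limma the log2 fold change was -0.33 (SE 0.15, 95% confidence interval -0.69 to 0.02, adjusted p = 0.12, limma), and after rescaling it was -0.53 with an adjusted p of 0.029.

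Numb and Sanpodo act on the receptor after asymmetric division, when Numb, inherited by one daughter, keeps Sanpodo and Notch from signalling at the membrane. The RNA of these genes moved in opposite directions. numb (FBgn0002973, 2L from 9437469 to 9464184, plus strand) had values of 1384, 1492 and 1374 in Sox21a EBs and of 620, 773 and 844 in control EBs. All Sox21a libraries were above all control libraries. The mean was 1417 ± 65.4 in Sox21a EBs and 745 ± 115 in control EBs (SD, n = 3 each), a 1.90-fold higher level. The log2 fold change was 0.94 (SE 0.17, 95% confidence interval 0.54 to 1.33, adjusted p = 0.0057, limma), and it was 0.74 after rescaling.

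spdo (FBgn0260440, 3R from 30476684 to 30478849, plus strand) encodes Sanpodo, a membrane protein that Notch needs in cells lacking Numb. It was rare in all libraries, with values of 19, 12 and 21.6 in Sox21a EBs and of 64.1, 43.5 and 31.0 in control EBs. These exceed the detection limit, and the groups did not overlap. The mean was 17.5 ± 4.98 in Sox21a EBs and 46.2 ± 16.7 in control EBs (SD, n = 3 each). On the log2 scale the change was -1.33 (SE 0.31, 95% confidence interval -2.07 to -0.59, adjusted p = 0.017, limma). The call was lost without Sox21a replicate 2, where the log2 fold change was -1.09 and the adjusted p 0.053, and without a filter on low values, where the adjusted p was 0.052.

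**Figure D2:**
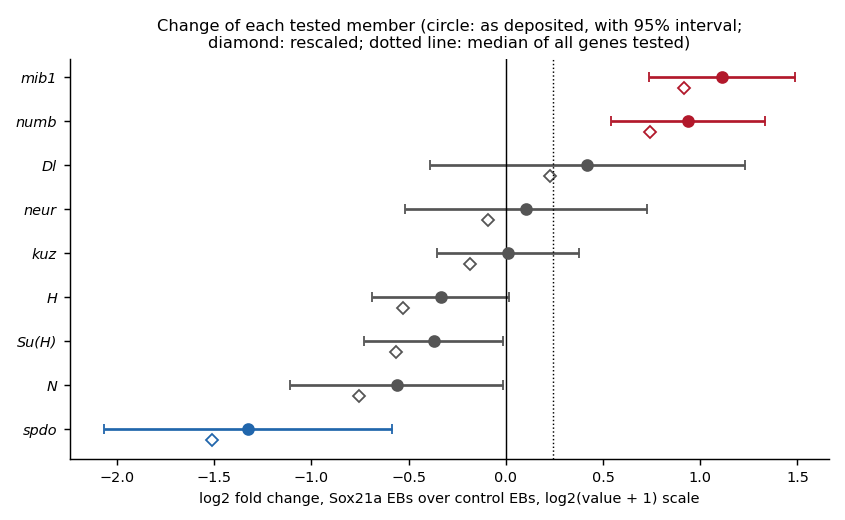
Log2 fold change of Sox21a EBs over control EBs for the 9 tested Notch pathway genes, on the log2(value + 1) scale. Circles are limma estimates on the deposited values with 95% confidence intervals, diamonds the estimates after rescaling, and the dotted line the median of all genes tested at 0.24. mib1 and numb lie above 0 and spdo below 0 on both scales, while kuz is at 0.01 and, rescaled, at -0.18.

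Levels of different members were set against each other only per kilobase of transcript, since longer transcripts collect more reads. The effect of RNA amplification on values per length was not tested. In Sox21a EBs the level per kilobase was highest for kuz, at 1888 ± 140, followed by mib1 at 716 ± 57.5 and N at 579 ± 166, which overlapped. numb followed at 428 ± 19.8 and neur at 206 ± 48.7, and then H at 149 ± 12.4, Dl at 118 ± 56.4 and Su(H) at 76.9 ± 8.61, where neighbours overlapped. spdo was at 8.41 ± 2.39 and Ser at 0.777. In control EBs kuz led again, at 1878 ± 196, followed by N at 839 ± 119 and mib1 at 332 ± 40.7 without overlap. numb at 225 ± 34.7, neur at 194 ± 51.3 and H at 188 ± 13.2 overlapped as neighbours, as did Su(H) at 99.3 ± 4.53 and Dl at 84.2 ± 20.3. spdo was at 22.2 ± 8.01 and Ser at 0.511 (SD, n = 3 libraries for each level). Per kilobase, the receptor thus stood above mib1 in control EBs without overlap, and the libraries of N and mib1 overlapped in Sox21a EBs. That overlap depends on the division by length, since the undivided values of N and mib1 did not overlap in either group.

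The genes of the Enhancer of split complex are the best known direct targets of Notch. They code for basic helix-loop-helix repressors and for small Bearded-family proteins that inhibit Neuralized, and the complex lies on 3R between 25997621 and 26041008. Together with Tom, Ocho, BobA and Brd from the Bearded locus, 15 such genes were listed and 8 were tested. In Sox21a EBs 4 fell, 0 rose and 4 did not pass, and the median log2 fold change of the 8 was -0.83, beside 0.24 for all genes tested. The lower share of all genes was 10.2%. With the replicate block 5 were lower, and likewise after rescaling, beside 10.8% and 15.1% of all genes in those fits. The 7 genes not tested, E(spl)m5-HLH, E(spl)m8-HLH, E(spl)m4-BFM, Tom, Ocho, BobA and Brd, had means under 10 over the 6 libraries.

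E(spl)mgamma-HLH, a repressor, had values of 21, 14 and 8.85 in Sox21a EBs and of 332, 373 and 333 in control EBs. Its level in control EBs was 23.7-fold that in Sox21a EBs by the group means. This gave a log2 fold change of -4.55 (SE 0.29, adjusted p = 7.9e-05, limma). E(spl)m3-HLH, a more abundant repressor, had values of 3006, 3132 and 3504 in Sox21a EBs and of 10011, 13148 and 11349 in control EBs. The change was, in log2, -1.83 (SE 0.17, adjusted p = 0.00031, limma). The Bearded-family gene E(spl)malpha-BFM had values of 3558, 4057 and 5114 in Sox21a EBs and of 6927, 13937 and 11080 in control EBs, with a log2 fold change of -1.29 (SE 0.28, adjusted p = 0.013, limma). The repressor gene E(spl)mbeta-HLH had values of 4286, 4573 and 5112 in Sox21a EBs and of 8509, 8802 and 7234 in control EBs, with a log2 fold change of -0.81 (SE 0.16, adjusted p = 0.0081, limma). For all of these the groups did not overlap, beside 15.2% of all genes lower without overlap.

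The other tested genes of the complex were low. E(spl)m2-BFM had values of 23, 29 and 37.4 in Sox21a EBs and of 37.2, 48.0 and 84.8 in control EBs (log2 fold change -0.85, adjusted p = 0.081, limma). The adjusted p was 0.020 with the replicate block, 0.044 after rescaling and 0.030 without control replicate 1, where the log2 fold change was -1.10. E(spl)m7-HLH had 41, 79 and 28.5 in Sox21a EBs and 44.5, 107 and 95.2 in control EBs, and did not pass (adjusted p = 0.23, limma). The log2 fold change of E(spl)mdelta-HLH was 0.57 (adjusted p = 0.12, limma) and that of E(spl)m6-BFM was 0.31 (adjusted p = 0.54, limma), on values of 6.70 to 31.5 in the 6 libraries.

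**Figure D3:**
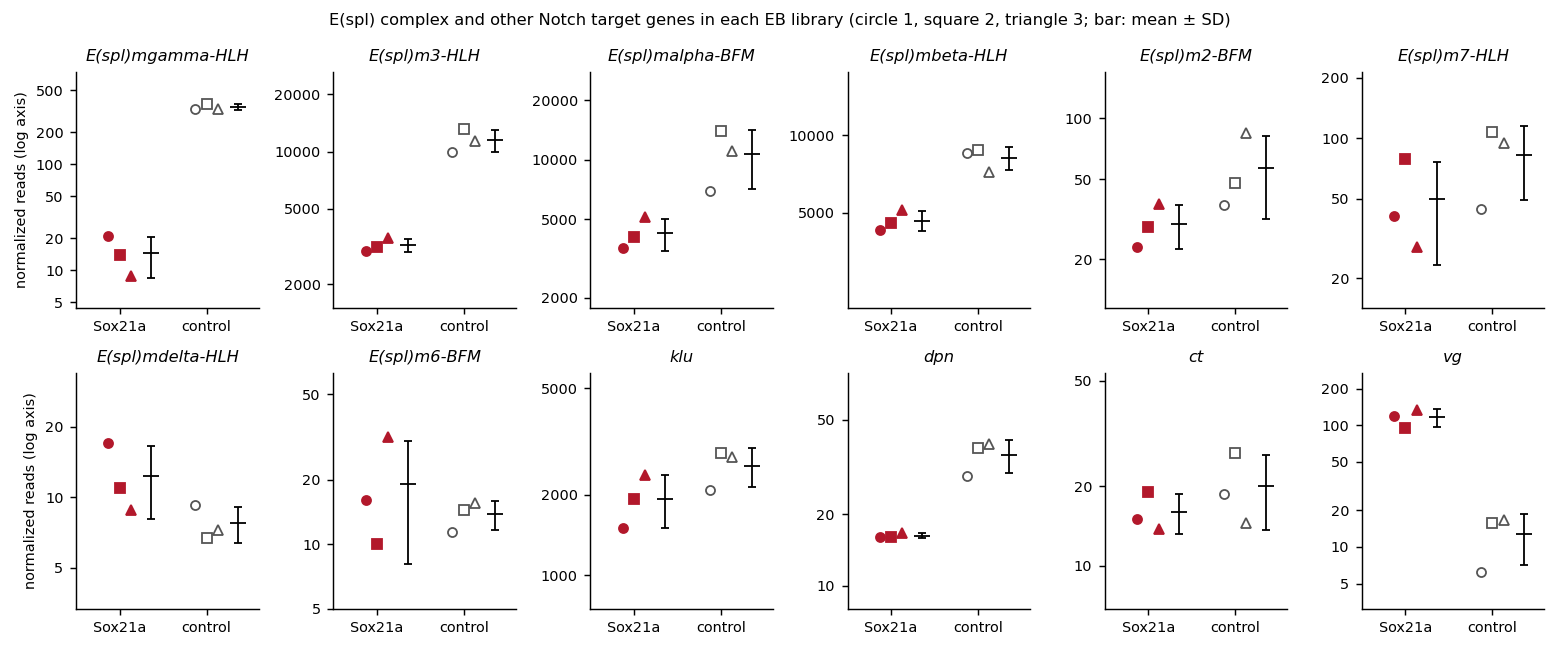
Normalized value, on a log axis, of the tested Enhancer of split genes and of the other Notch target genes in each library, Sox21a EBs to the left and control EBs to the right of each gene. Points are libraries, with a circle, square and triangle for replicates 1, 2 and 3, and bars are means with the SD of 3 libraries. E(spl)mgamma-HLH is the most widely separated on the low side in Sox21a EBs, while vg is separated the other way.

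Of 5 other genes known as Notch targets in some fly tissue, klu, dpn, ct and vg were tested and Hey lay at or under the detection limit in all 6 libraries. klu encodes a zinc finger protein of EBs. It had values of 1498, 1926 and 2372 in Sox21a EBs and of 2077, 2851 and 2764 in control EBs, and did not pass (log2 fold change -0.42, adjusted p = 0.18, limma). dpn, a helix-loop-helix repressor of neural stem cells, was low and fell, with 16, 16 and 16.7 in Sox21a EBs and 29.0, 38.0 and 39.3 in control EBs. The log2 change came to -1.07 (SE 0.17, adjusted p = 0.0033, limma), and it overlaps an antisense gene, asRNA:CR44275. ct, a homeodomain gene, had a log2 fold change of -0.28 (adjusted p = 0.41, limma). vg, a regulator of wing development, rose, with 120, 95 and 135 in Sox21a EBs and 6.21, 15.6 and 16.5 in control EBs. Its log2 fold change was 3.18 (SE 0.35, adjusted p = 0.00073, limma).

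The wider pathway was read from lists grouped by the step at which the genes act. Without the 10 members, 94 genes were listed, 82 were tested, and 13 were higher and 9 lower, beside 24.2% of all genes higher and 10.2% lower. Their median log2 fold change was 0.08, beside 0.24 for all genes tested. After rescaling, 8 were higher and 14 lower, beside 17.2% and 15.1% of all genes. These shares and this median are the background for each list below. The number higher was between 6 and 18 when each library was left out, with 8, 7 and 6 without Sox21a replicates 1, 2 and 3, and 6 and 8 without control replicates 2 and 3. The number lower reached 15 without control replicate 1, where 1204 of all genes tested were lower, against 977 with all libraries. Exons on the opposite strand overlap those of several genes named from these lists, so that their reads could not be told apart without strand. These were Psn (with mRpL15), nct (HDAC11), pen-2 (sbb), Tsp26A (Gal), mib2 (CG31800), gro (Exo84), Smr (asRNA:CR45623), aPKC (CG10257), aurA (CG12213), da (asRNA:CR45789), Gmer (asrij), nac (mRpL1) and skd (CG12984 and asRNA:CR45944). On the same strand, rumi overlaps CG31139 and Smr overlaps lncRNA:CR43963.

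**Figure D4:**
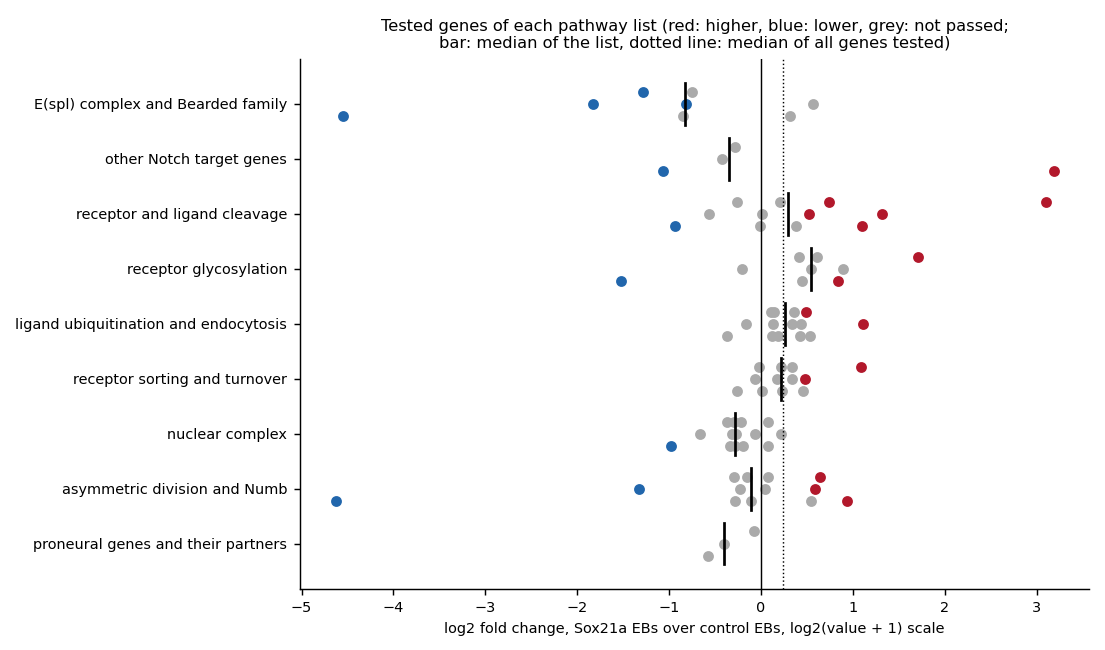
Log2 fold change of Sox21a EBs over control EBs for every tested gene of each pathway list, with 1 row per list. Points are genes, red where called higher, blue where called lower and grey where not passed, the black bar is the median of the list, and the dotted line is the median of all genes tested at 0.24. The Enhancer of split and Bearded list has its median at -0.83, while the other lists have medians between -0.40 and 0.54.

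Among 12 genes of receptor and ligand cleavage, 5 rose and 1 fell, beside 24.2% of all genes higher and 10.2% lower. The median log2 fold change was 0.30, near the 0.24 of all genes. The largest change was in Fur1, a furin-type convertase, with 1282, 1179 and 1062 in Sox21a EBs and 107, 143 and 164 in control EBs. The change was, in log2, 3.10 (SE 0.20, adjusted p = 8.4e-05, limma). The related convertase Fur2 had a log2 fold change of 1.32 (adjusted p = 0.0066, limma). The tetraspanins Tsp3A and Tsp86D belong to the family that brings Kuzbanian to the membrane, and had log2 fold changes of 1.10 and 0.74 (adjusted p = 0.0095 and 0.017, limma). Another of that family, Tsp26A, named after its value was seen, was the gene that fell (log2 fold change -0.93, adjusted p = 0.033, limma).

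Of the gamma-secretase complex, Psn, the catalytic subunit, had values of 2616, 2604 and 2740 in Sox21a EBs and of 1926, 1640 and 1977 in control EBs. The log2 change came to 0.53 (SE 0.15, adjusted p = 0.032, limma), and after rescaling it was 0.33 with an adjusted p of 0.073. The other subunits did not pass. Their log2 fold changes were 0.38 for nct, 0.21 for aph-1 and -0.56 for pen-2 (adjusted p = 0.12, 0.30 and 0.12, limma), and pen-2 was called lower with the replicate block, at an adjusted p of 0.037, and without control replicate 1, where it was -0.76 with the same adjusted p. Psn lost its call without any one of the 3 Sox21a libraries or of control replicates 2 and 3, at adjusted p between 0.056 and 0.11. Tsp86D lost it without any Sox21a library or without control replicate 2, at 0.051 to 0.056. Tsp26A lost it without Sox21a replicates 2 or 3 or control replicate 2, at 0.087 to 0.098, and without a filter on low values, at 0.075.

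Sugars added to the receptor tune its response to each ligand, and of 9 glycosylation genes tested 2 rose and 1 fell, beside 24.2% and 10.2% of all genes. fng encodes Fringe, the glycosyltransferase that extends O-fucose on Notch and shifts its response between Delta and Serrate. Its values were 1448, 1684 and 2322 in Sox21a EBs and 5124, 5108 and 5157 in control EBs. The control libraries were close together and all Sox21a libraries lay below them, with a log2 fold change of -1.52 (SE 0.20, adjusted p = 0.0015, limma). It overlaps CG10589 on the opposite strand. CG9996, now named shams, encodes a xylosyltransferase acting on the receptor, and had 1048, 1038 and 1150 in Sox21a EBs and 411, 272 and 319 in control EBs (log2 fold change 1.71, adjusted p = 0.00070, limma). O-fut1, which adds the O-fucose, had 1136, 1374 and 1509 in Sox21a EBs and 916, 621 and 727 in control EBs (log2 fold change 0.84, adjusted p = 0.018, limma). O-fut1 lost its call without Sox21a replicates 2 or 3 or control replicates 2 or 3, at adjusted p between 0.053 and 0.067. The number higher was 6 without control replicate 1, where rumi, Eogt, Gmer and nac, named after their values were seen, also passed (log2 fold changes 1.27, 0.77, 1.07 and 0.68, adjusted p = 0.0016, 0.041, 0.013 and 0.016, limma). It was 4, with rumi and nac, at a pseudocount of 10 or a mean of at least 100. Over all genes tested, 3013 were higher without control replicate 1 and 2473 at a pseudocount of 10, against 2316 without these changes. A mean of at least 100, with fewer genes tested, gave 2033. The median log2 fold change of the list was 0.54, against 0.24 for all genes tested.

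Among 14 genes of ligand ubiquitination and endocytosis, 2 rose and 0 fell, mib1 and its relative mib2, beside 24.2% of all genes higher. With the replicate block AP-2sigma, an adaptor subunit named after its values were seen, was called as well, beside 26% of all genes higher. Its log2 fold change was 0.53 (adjusted p = 0.064, against 0.044 with the block, limma). With an intensity trend 5 genes of the list were higher, where 2637 of all genes tested were higher, against 2316 without it. mib2 had a log2 fold change of 0.49 (SE 0.14, adjusted p = 0.031, limma), and after rescaling it was 0.30 with an adjusted p of 0.13. The median of the list was 0.26, near that of all genes. Of 12 genes of receptor sorting and turnover, 2 rose and 0 fell, beside 24.2% of all genes higher, with a list median of 0.22. lsn, a subunit of ESCRT-II, which sorts receptors for lysosomes, had a log2 fold change of 1.09 (adjusted p = 0.0038, limma) and overlaps CG6569 on the opposite strand. shrb, an ESCRT-III subunit, had one of 0.48 (adjusted p = 0.033, limma), and after rescaling one of 0.29 with an adjusted p of 0.12. The calls on mib2 and shrb were each lost without any one Sox21a library and without control replicates 2 or 3, at adjusted p between 0.066 and 0.14 for mib2 and between 0.074 and 0.13 for shrb.

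Among 14 genes of the nuclear complex, which includes Su(H), H and their partners, 0 rose and 1 fell, beside 24.2% and 10.2% of all genes, with a median log2 fold change of -0.28. The gene that fell was nej, which encodes the acetyltransferase CBP. It had 1721, 1948 and 2370 in Sox21a EBs and 3077, 4306 and 4548 in control EBs, with a log2 fold change of -0.97 (SE 0.21, adjusted p = 0.013, limma). The co-activator mam had a log2 fold change of 0.08 (adjusted p = 0.78, limma). The co-repressors gro and CtBP both had one of -0.29 (adjusted p = 0.24 and 0.15, limma), and CtBP passed after rescaling, at 0.021. With the replicate block 2 genes of this list were lower, and after rescaling 5 were, beside 10.8% and 15.1% of all genes. The gene added by the block was Smr, a co-repressor named after its values were seen, with a log2 fold change of -0.66 and adjusted p of 0.075, against 0.029 with the block. Over all genes tested, leaving out control replicate 1 gave 1204 lower and 3013 higher, against 977 and 2316 with all libraries. Without control replicate 1, 3 genes of this list were lower and 1 was higher. Those added were Smr at -0.85 (adjusted p = 0.025, limma) and, also named after their values were seen, skd at -0.52 (adjusted p = 0.032, limma) and Bx42, which was higher, at 0.48 (adjusted p = 0.036, limma).

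Among 13 genes of asymmetric division, numb included, 3 rose and 2 fell, beside 24.2% of all genes higher and 10.2% lower, with a median log2 fold change of -0.11. mira, the adaptor that carries fate determinants in dividing neuroblasts, was 86, 25 and 27.5 in Sox21a EBs and 1326, 937 and 781 in control EBs. No Sox21a library came near a control library, and the log2 fold change was -4.63 (SE 0.47, adjusted p = 0.00049, limma). aPKC, the kinase of the Par complex that phosphorylates Numb, had a log2 fold change of 0.64 (adjusted p = 0.021, limma), and after rescaling one of 0.45 with an adjusted p of 0.064. aurA, a mitotic kinase named after its value was seen, had one of 0.59 (adjusted p = 0.040, limma), and after rescaling one of 0.40 with an adjusted p of 0.074. After rescaling, 1 gene of this list was higher and 3 were lower, beside 17.2% and 15.1% of all genes. aPKC lost its call without Sox21a replicates 2 or 3 or control replicate 2, at adjusted p between 0.058 and 0.091, and aurA without any one library, at 0.051 to 0.12.

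Notch holds proneural genes in check in the nervous system. Of 7 proneural genes and their partners, sc and the partners da and emc were tested and 0 passed. sc had 21, 31 and 15.7 in Sox21a EBs and 19.7, 22.3 and 27.9 in control EBs. The log2 fold changes of sc, da and emc were -0.08, -0.40 and -0.58 (adjusted p = 0.83, 0.12 and 0.085, limma). The groups did not overlap for da and emc, beside 15.2% of all genes lower without overlap. da passed after rescaling, at 0.046, and without control replicate 1, where the log2 fold change was -0.55 and the adjusted p 0.023. emc passed there too, at -0.80 with an adjusted p of 0.0099, and with an intensity trend, at 0.031.

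The genes whose pattern over the 6 libraries was most like that of N, among 7353 genes with a mean of at least 100, were CG3902, CG9425 and NijB, with Pearson correlations of 0.998, 0.997 and 0.995 of log2(value + 1). CG3902 and NijB overlap on opposite strands. Those most like Dl were mt:ND2, Nrg and CR44097, with correlations of 0.984, 0.971 and 0.971. Dl and each of these were highest in Sox21a replicate 3, and N and each of its nearest genes were higher there than in the other Sox21a libraries. That library also had the largest rescaling factor, 1.14, and the part of this in these patterns was not tested. The correlations describe 6 libraries that share genotype and replicate, and they were not tested.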

How the data were processed

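Enteroblasts were sorted by GFP, and their RNA was isolated, selected for mRNA, amplified and sequenced. The authors mapped reads with Bowtie2 to release 6 of the genome, counted them in exons and divided them by size factors. The deposited values are thus a signal, normalized reads per transcript. Each value was a whole multiple of 1 step of its library (tolerance 0.001), and the smallest was 2 steps. Whether the 2 steps were an offset or a floor is not given in the sources used here. The detection limit was taken as 5 steps, 3 counts above the smallest, and covers counting error only. A second deposited table holds the authors' own comparison (group means, fold changes and p-values) and was not used. No per-library column (0) was left out.

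The values were analysed with limma 3.58.1 in R 4.3.3 (lmFit, eBayes without trend) on log2(value + 1). Transcripts averaging under 10 across the 6 libraries were not tested. Then the transcript with the highest mean was taken for each gene. Lists are described by counts and medians, with no set test. Samples were grouped by their labels. Replicate numbers come from the sample titles, and deviations from the group means of same-numbered libraries correlated at 0.171, 0.129 and 0.124 for numbers 1, 2 and 3, against -0.184 to 0.051 for different numbers, so that the numbers were taken to pair the libraries. Alternatives were the replicate block, rescaling of the libraries by median-of-ratios factors (on transcripts averaging 100 or more), an intensity trend, pseudocounts of 0.1 and 10, the smallest value subtracted, summed transcripts, other filters and each library left out. Rescaling with the block was added after the data were seen. The calls come from the fit without the block, planned after the authors' exact test of the 2 groups. They thus leave out the pairing by replicate number.

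The members and lists were chosen with earlier results of these data known. Named are the members, Sox21a, the tested target genes, up to 4 called genes with the smallest p of each other list, gamma-secretase, mam, gro and CtBP, the 3 genes most like N and Dl, and genes said to be named after their values were seen. Positions, transcript lengths and overlaps are from the Ensembl annotation of BDGP6. Tables and plots were made with pandas 2.3.3, numpy 2.4.6 and matplotlib 3.10.9 under Python 3.11.15.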

Additional observations from a re-analysis of the deposited data

How the results depend on the processing

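The number of members higher was 2 under all 16 alternatives, and mib1 and numb kept their calls in all of them. The number of members lower was 2 with an intensity trend and with the replicate block, 4 after rescaling with and without the block, and 0 with no filter or a mean of at least 100, where spdo was not tested. It ranged from 0 to 2 when each library was left out. Among list genes that are no member, 8 were higher and 14 lower after rescaling, and 7 and 16 after rescaling with the block. Leaving out each library gave 6 to 18 higher and 8 to 15 lower. Over all genes tested, 1474 were lower after rescaling with the block, against 977 without either, and leaving out each library gave 1419 to 3013 higher and 622 to 1204 lower. Among 56 single genes recomputed, the members, Sox21a and genes of the lists, no called gene reversed its direction under these alternatives. The replicate block gained the calls of N, E(spl)m2-BFM, pen-2, Smr and AP-2sigma and changed no other call among them. A pseudocount of 0.1, the smallest value subtracted and summed transcripts changed none of these calls, and a pseudocount of 10 gained rumi and nac. Fits that leave out a library have fewer samples. For the other changes the cause was not tested. The planned count models (edgeR and DESeq2) were not run, since it is not given whether the 2 steps were an offset or a floor and the reads behind the values could not be recovered. Ser and the 7 untested genes of the Enhancer of split and Bearded list averaged under 10 over the 6 libraries. The part of depth in this was not tested.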
